A study of Drosophila melanogaster with 16 samples.

Results

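Nuclear genes for subunits of respiratory complexes II, III, IV and V were followed across 4 genotypes of the Drosophila melanogaster larval CNS. They were chosen by symbol: those starting with UQCR-, COX or ATPsyn, together with Cyt-c1, RFeSP, SdhA, SdhB, SdhC and SdhD. This rule took 46 of the 17698 genes in the count files, of which 4 belong to complex II, 11 to complex III, 16 to complex IV and 15 to complex V. The symbols of 15 of the 46 end in L or L2 and mark a duplicate copy of a subunit gene. The other 31 are called main copies.

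RNA was sequenced from the whole CNS of late larvae of the last instar (wandering stage) grown at 25 degrees Celsius, with 4 replicates per genotype and 20 CNSs pooled in each. All groups carried the pan-neuronal driver nsybGal4. The control was nsybGal4/+, TFAM overexpression (o/e) was nsybGal4>UAS-TFAM3M, and a further genotype added UAS-ATF4 RNAi to TFAM overexpression. The last group is labelled ATF4 overexpression, nsybGal4>UAS-ATF4-HA, in which the ATF4 transgene carries an HA tag. Since the driver acts in neurons while glia, neuroblasts and attached tissue were also in the RNA, a difference confined to neurons is diluted in these libraries. In such bulk RNA, fewer cells of a type and less RNA per cell cannot be told apart. The labels give 4 RNA samples per genotype and no more about their origin, so p-values measure the spread between these samples. The samples labelled ATF4 overexpression are numbered apart from the run that the other genotypes share. Whether they were made or sequenced separately is not given, so any such batch cannot be told apart from that genotype.

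Oxidative phosphorylation moves electrons from complexes I and II through ubiquinone to complex III, then through cytochrome c to complex IV, where oxygen is reduced. Complexes III and IV pump protons out of the mitochondrial matrix, and complex V, the ATP synthase, lets them flow back to make ATP. Complex II (succinate dehydrogenase) is also an enzyme of the TCA cycle and is encoded wholly in the nucleus, whereas complexes III, IV and V each combine nuclear subunits with a few encoded in mitochondrial DNA. TFAM binds and packages mitochondrial DNA, and the question these libraries address is how the nucleus responds when neuronal TFAM is overexpressed, and which part of that response needs ATF4 (crc in flies).

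Total counts per library were between 18215062 and 24778270, and the 46 genes took between 0.709% and 1.17% of them. Counts were scaled to library size (CPM, with TMM factors) within a gene, and to CPM per kilobase of exon (FPKM) wherever levels of different genes are set side by side. A floor of 3 counts in a library corresponds to between 0.121 and 0.165 CPM, and this covers counting error only. All 5 neuron, 4 glia and 4 neuroblast markers examined were above 1 CPM in every library. The 38 mitochondrial genome genes in the files had 0 counts throughout, so the mitochondrially encoded partner subunits were not measured.

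TFAM was measured between 70.2 and 139 CPM in control and between 396 and 682 CPM with TFAM overexpressed, which is a log2 difference of 2.46 (SE 0.25, n = 4 per genotype, edgeR quasi-likelihood adjusted p = 0.00341). With ATF4 RNAi added, TFAM lay between 399 and 669 CPM. The ATF4 gene crc lay between 188 and 227 CPM in control and between 148 and 165 CPM with ATF4 RNAi, and these groups did not overlap, but the log2 fold change of -0.41 (SE 0.10) had an edgeR adjusted p of 0.250. Against TFAM overexpression alone crc was at -0.38 with ATF4 RNAi (SE 0.11, edgeR adjusted p = 0.339). In the libraries labelled ATF4 overexpression crc lay between 177 and 189 CPM, which is not above control (log2 fold change -0.15, SE 0.10, edgeR adjusted p = 0.530). The level of the targeted gene goes against the label of that group, which is called "labelled ATF4 overexpression" throughout.

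Before any comparison, 1 feature of the libraries bears on these genes. The main copies moved together from library to library within a genotype. Relative to the mean of the 16 libraries, the median of the 30 main copies with reads was at 0.61 on the log2 scale in control replicate 3, with a range over genes of -0.19 to 1.26. The other control replicates were at -0.25, -0.03 and 0.17. TFAM overexpression replicate 2 was at 0.32 while the other TFAM replicates lay between -0.31 and -0.12. ATF4 RNAi replicate 4 was at 0.36, above -0.19, -0.01 and 0.18 in the others. The libraries labelled ATF4 overexpression lay between -0.30 and -0.01. Control replicate 3 thus stood apart upward, and TFAM overexpression replicate 2 and ATF4 RNAi replicate 4 did so to a lesser degree.

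**Figure D1:**
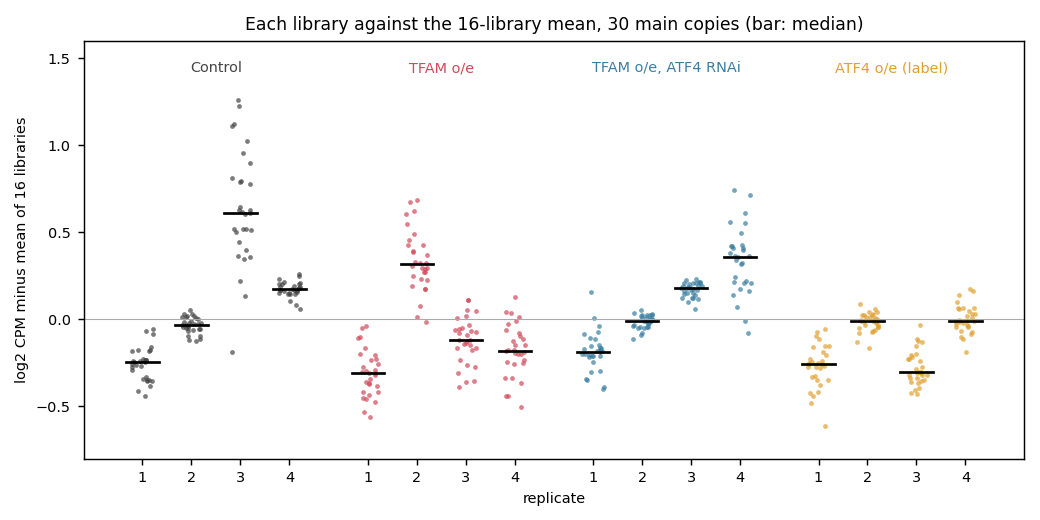
Log2 CPM of each of the 30 main copies (points) in each library, minus the mean of that gene over the 16 libraries, by genotype and replicate; the black bar is the median. Control replicate 3 has the highest median (0.61), and the medians of the libraries labelled ATF4 overexpression are all below 0 (-0.30 to -0.01).

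Gene length and cell type markers moved with these libraries. In control replicate 3, expression relative to the mean of the libraries fell with log2 exon length with a slope of -0.357 per doubling, against 0.104, 0.0478 and -0.0443 in the other controls, and the slope was -0.151 in TFAM overexpression replicate 2 and -0.119 in ATF4 RNAi replicate 4. The genes examined are short, with a median exon length of 873.5 bases against 2134 bases over the genes tested. Taking out each library's trend on length left control replicate 3 at 0.12, TFAM replicate 2 at 0.16 and ATF4 RNAi replicate 4 at 0.12, and the median SD of a main copy within a genotype went from 0.260 to 0.149 on the log2 scale (28 of 30 genes). Over all genes that SD went from 0.252 to 0.160. Within the 30 genes themselves the 10 shortest (417 to 789 bases) had a median of 0.71 in control replicate 3 and the 10 longest (1231 to 3817 bases) 0.56. Control replicate 3 also had the lowest summed CPM of the 5 neuron markers, 1257, against 2156 to 2472 in the other controls, and the highest of the 4 glia markers, 1798, against 983 to 1418. No marker of either list was at 0. The part of length and cell makeup in the level of these genes was not tested, and results against control are given with and without this replicate.

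Most main copies were abundant messages of the larval CNS. The 30 with reads had mean levels between 47.6 and 825 FPKM over the 16 libraries. That is between the 90.3 and the 99.4 percentile of the 17560 genes with an exon length, those without reads included. In control, median levels by complex were 72.5 FPKM for complex II, 116 FPKM for complex III, 290 FPKM for complex IV and 324 FPKM for complex V. The subunits of complex III lay closest to each other, from 110 to 164 FPKM, and those of complex V farthest apart, with a ratio of highest to lowest of 17.8. That ratio rests on ATPsyndelta at 52.6 FPKM. The next lowest subunit of complex V, ATPsynCF6, was at 215 FPKM, and the highest at 936 FPKM.

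**Figure D2:**
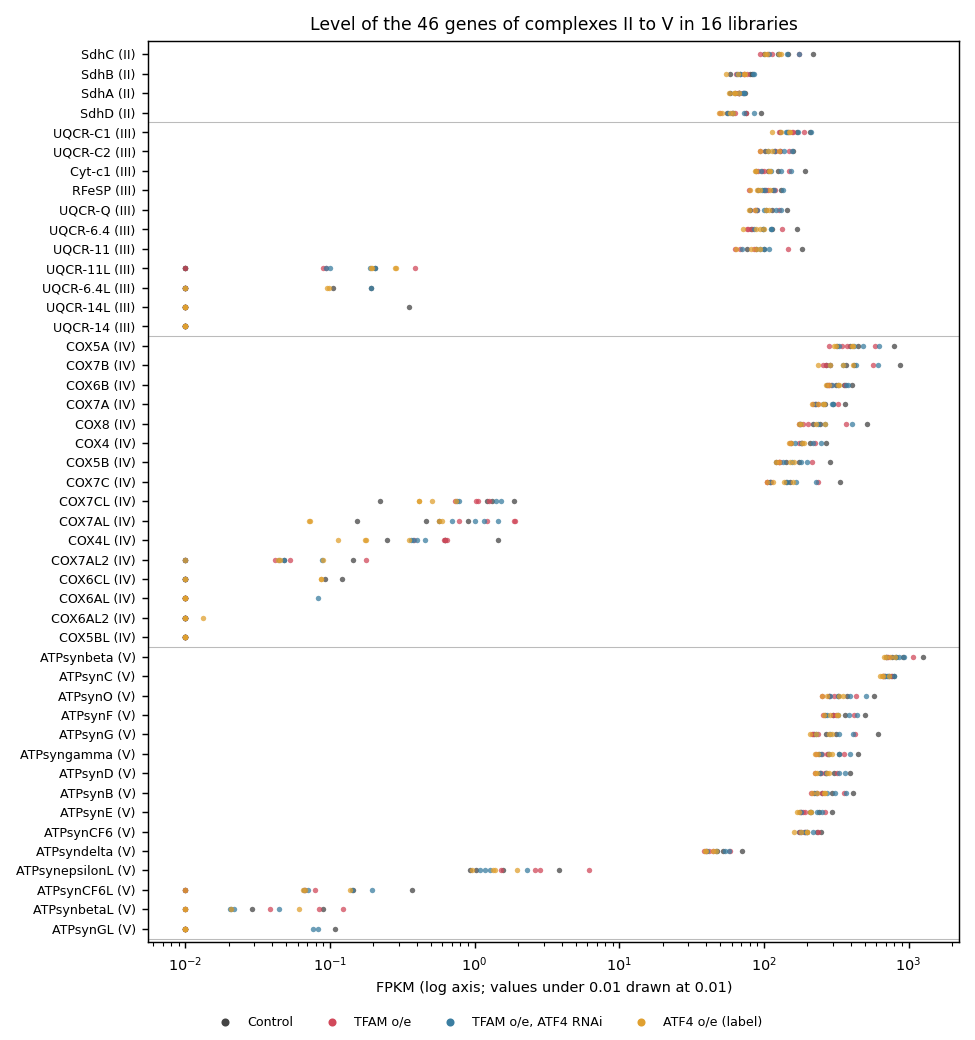
FPKM (log axis) of each of the 46 genes in each of the 16 libraries, ordered by complex and mean level and coloured by genotype. The main copies with reads lie between 47.6 and 825 FPKM on average, the duplicate copies at 2.00 FPKM or less, and UQCR-14 and COX5BL at 0.

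In complex II, SdhC, one of the membrane anchors, was at 148 ± 51.4 FPKM in control (SD, n = 4). The iron-sulfur subunit SdhB followed at 72.7 FPKM, the other anchor SdhD at 72.2 FPKM and the flavoprotein SdhA, which oxidises succinate, at 65.6 ± 6.62 FPKM. Control ranges overlapped for 2 of the 3 neighbouring pairs in this order, the exception being SdhC above SdhB. SdhA had a within-genotype SD of 0.0984 on the log2 scale, the lowest after ATPsynC of complex V at 0.0850. It was at 174, 185, 160 and 203 CPM in control replicates 1 to 4, at 181, 184, 185 and 198 CPM in TFAM overexpression, at 202, 184, 200 and 198 CPM with ATF4 RNAi and at 173, 186, 157 and 170 CPM in the labelled ATF4 overexpression. Its lowest control value was replicate 3, the library in which most other members were highest. SdhC, on chr3R:11208887-11209849, was at 90.1, 114, 199 and 133 CPM in control, at 85.8, 158, 103 and 96.1 CPM in TFAM overexpression, at 98.9, 116, 131 and 158 CPM with ATF4 RNAi, and between 91.8 and 119 CPM in the labelled ATF4 overexpression. The 4 groups overlap, and the highest value in each of the first 3 came from control replicate 3, TFAM replicate 2 and ATF4 RNAi replicate 4.

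In complex III the core protein UQCR-C1 was highest, at 164 ± 34.2 FPKM in control. Below it came Cyt-c1, the cytochrome that passes electrons to cytochrome c (128 FPKM), the second core protein UQCR-C2 (127 FPKM), the small subunits UQCR-6.4 (116 FPKM), UQCR-11 (113 FPKM) and UQCR-Q (110 FPKM), and the Rieske iron-sulfur protein RFeSP (110 FPKM). All 6 neighbouring pairs overlapped, so no order among these 7 is resolved in control. UQCR-C1 (chr3R:14890231-14892387) was at 211, 241, 341 and 277 CPM in control and at 208, 310, 260 and 257 CPM in TFAM overexpression. It was at 232, 236, 283 and 347 CPM with ATF4 RNAi and at 215, 249, 185 and 244 CPM in the labelled ATF4 overexpression. The ratio of UQCR-C1 to UQCR-C2 in FPKM was narrow, between 1.24 and 1.32 in control and between 1.23 and 1.36 in TFAM overexpression, while the level of UQCR-C1 itself differed more between libraries. UQCR-11 (chr3L:25120709-25126171), the lowest of the complex over all libraries, was at 124, 143, 297 and 162 CPM in control and at 138, 238, 111 and 102 CPM in TFAM overexpression. It was at 114, 152, 162 and 174 CPM with ATF4 RNAi and at 103, 132, 142 and 152 CPM in the labelled ATF4 overexpression, so that the groups overlap.

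UQCR-14 is the main copy without reads, at 0 counts in all 16 libraries. Its 523 exon bases (chrX:16286288-16286988, plus strand) lie wholly within exons of CG32576 on the other strand, which had between 178 and 256 counts per library. The same holds for the duplicate COX5BL, whose 647 exon bases lie within Trmt6 (526 to 653 counts per library). Of 147 genes in the files that are wholly covered by exons of the other strand, 140 (95.2%) had 0 counts in all libraries, against 1808 of 12910 genes with no exon overlap on the other strand. The 0 of UQCR-14 and COX5BL is therefore not a measure of their expression. Of the other main copies, 15 share no exon base with any gene, and partial overlaps reach 1358 of 3817 bases for ATPsyndelta (with CG2962) and 227 of 561 bases for UQCR-6.4 (with POSH), whose counts are uncertain to that extent.

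In complex IV, COX5A at 488 ± 208 FPKM and COX7B at 483 ± 268 FPKM led in control, followed by COX6B (339 FPKM), COX7A and COX8 (both 290 FPKM), COX4 (204 FPKM), COX7C (186 FPKM) and COX5B (182 FPKM). These nuclear subunits surround the mitochondrially encoded catalytic core. All 7 neighbouring pairs overlapped. COX5A (chr3R:11819359-11820299) was at 254, 313, 628 and 359 CPM in control, at 224, 467, 299 and 274 CPM in TFAM overexpression, at 261, 332, 384 and 494 CPM with ATF4 RNAi and at 252, 328, 243 and 323 CPM in the labelled ATF4 overexpression. COX7B (chr3L:17425477-17426282), the shortest main copy at 417 exon bases, was at 112, 154, 364 and 175 CPM in control and at 107, 237, 119 and 111 CPM in TFAM overexpression. It was at 119, 148, 180 and 258 CPM with ATF4 RNAi and at 98.4, 148, 120 and 171 CPM in the labelled ATF4 overexpression. For both genes control replicate 3 was far above the other controls, and without it the control mean was 388 ± 65.8 FPKM for COX5A and 352 ± 76.3 FPKM for COX7B (n = 3).

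In complex V, ATPsynbeta, the catalytic subunit of the F1 head, had the highest level of all 46 genes, at 936 ± 219 FPKM in control. The c subunit ATPsynC, which forms the rotating ring in the membrane, was at 748 ± 51.8 FPKM, and the ranges of both overlapped. Then came ATPsynO (389 FPKM), the stator subunit that ties the head to the membrane part, and ATPsynF (357 FPKM), ATPsynG (355 FPKM), ATPsyngamma (324 FPKM), the rotor shaft, ATPsynD (303 FPKM), ATPsynB (296 FPKM), ATPsynE (230 FPKM) and the coupling factor ATPsynCF6 (215 FPKM). ATPsyndelta, a central stalk subunit whose counts are uncertain through its overlap with CG2962, was lowest at 52.6 ± 13.4 FPKM. This value also depends on its annotated exon length of 3817 bases, the longest of the main copies tested. Whether the messages in the CNS hold all of that length was not tested. Of 10 neighbouring pairs 8 overlapped in control, the breaks being ATPsynC above ATPsynO and ATPsynCF6 above ATPsyndelta.

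ATPsynbeta (chr4:1031484-1034917) was at 1821, 1944, 2983 and 2186 CPM in control and at 1705, 2552, 1720 and 1668 CPM in TFAM overexpression. With ATF4 RNAi it was at 1668, 1968, 2058 and 2234 CPM, and in the labelled ATF4 overexpression at 1603, 1927, 1671 and 1784 CPM. All 4 groups overlap. The alpha subunit of the same head is encoded by blw, which the symbol rule does not take. It went the other way in the library that stands apart: blw was at 946, 994, 694 and 1018 CPM in control, lowest in replicate 3 where ATPsynbeta was highest. The FPKM ratio of ATPsynbeta to blw accordingly ranged from 1.82 to 4.06 in control and from 1.49 to 2.87 in TFAM overexpression. It ranged from 1.55 to 2.21 with ATF4 RNAi and from 1.59 to 1.84 in the labelled ATF4 overexpression. The enzyme holds equal numbers of both subunits as proteins. Protein was not measured here, and a ratio of messages need not follow it. The ratio of ATPsynbeta to ATPsyngamma stayed between 2.78 and 3.16 in control.

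**Figure D3:**
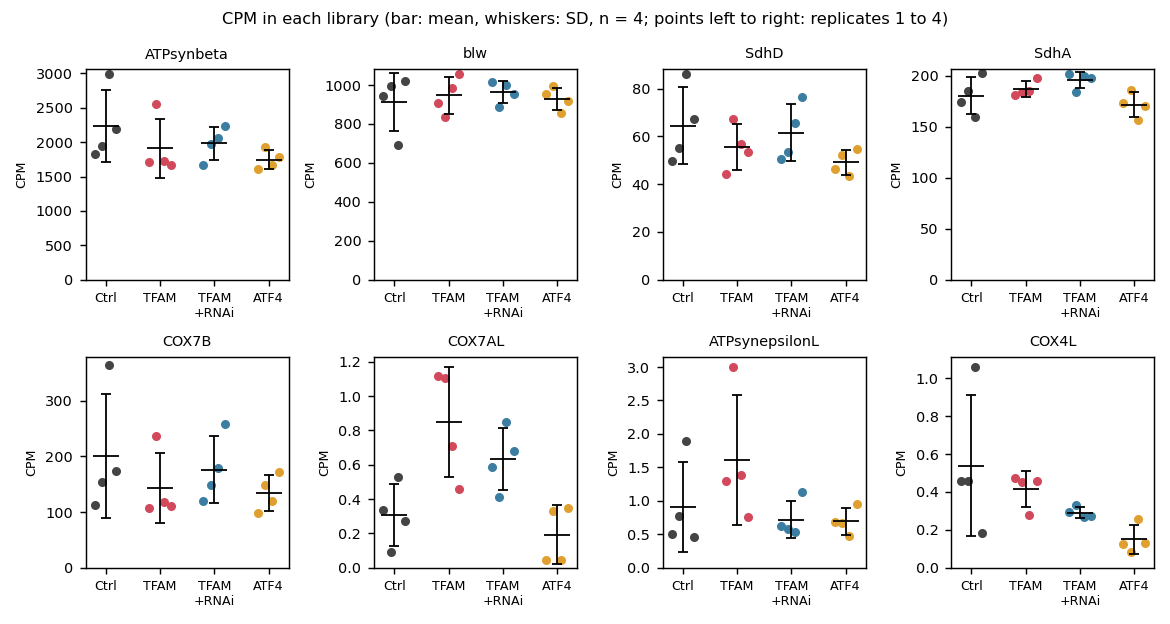
CPM of 7 members and of blw in each library (points, replicates 1 to 4 from left to right), with the mean (bar) and SD (whiskers, n = 4) of each genotype. ATPsynbeta, SdhD and COX7B are highest in control replicate 3, where blw and SdhA have their lowest control value, and COX7AL is highest in TFAM overexpression with overlap of the groups.

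The 15 duplicate copies had few reads in the larval CNS, and COX5BL, as said, was not measured. Such copies of respiratory subunit genes are known in flies mostly for expression in the testis. The most abundant, ATPsynepsilonL, averaged 2.00 FPKM, and 11 of the 15 had at most 5 counts in any library: UQCR-11L, UQCR-14L, UQCR-6.4L, COX5BL, COX6AL, COX6AL2, COX6CL, COX7AL2, ATPsynCF6L, ATPsynGL and ATPsynbetaL. Only ATPsynepsilonL (345 counts over the 16 libraries), COX7AL (178), COX7CL (141) and COX4L (122) had reads in every library, and these 4 were the duplicates that passed the filter on low counts in any comparison. The main copies tested were at least 47.6 FPKM. Summed CPM of the 7 testis markers in the files was between 10.1 and 11.6 in control, between 7.19 and 10.9 in TFAM overexpression, between 6.84 and 11.2 with ATF4 RNAi and between 8.40 and 10.4 in the labelled ATF4 overexpression.

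COX7AL (chr3R:8343669-8344310) was the duplicate that differed most between genotypes. It was at 0.333, 0.0911, 0.531 and 0.272 CPM in control, which are 8, 2, 9 and 6 counts, and at 1.12, 1.10, 0.712 and 0.460 CPM in TFAM overexpression, which are 26, 22, 18 and 11 counts. With ATF4 RNAi it was at 0.588, 0.413, 0.847 and 0.682 CPM, and in the labelled ATF4 overexpression at 0.0424, 0.331, 0.0426 and 0.348 CPM. The TFAM libraries were mostly above the controls, but TFAM replicate 4 was below control replicate 3. ATPsynepsilonL (chr3R:10121773-10122320) had 12, 17, 32 and 10 counts in control, between 0.454 and 1.89 CPM. It was at 1.29, 3.01, 1.38 and 0.752 CPM in TFAM overexpression, at 0.630, 0.579, 0.535 and 1.14 CPM with ATF4 RNAi and at 0.679, 0.662, 0.468 and 0.957 CPM in the labelled ATF4 overexpression. COX4L was at 0.459, 0.455, 1.06 and 0.181 CPM in control, at 0.473, 0.451, 0.277 and 0.460 CPM in TFAM overexpression, at 0.294, 0.331, 0.268 and 0.273 CPM with ATF4 RNAi and at 0.127, 0.0827, 0.255 and 0.131 CPM in the labelled ATF4 overexpression. The counts behind these values were between 2 and 18 per library for COX4L, between 1 and 26 for COX7AL and between 10 and 60 for ATPsynepsilonL.

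The first comparison asked how the genes differed between control and TFAM overexpression. None of the 34 members tested was called by edgeR, which took an adjusted p below 0.05 and a 1.2-fold difference or more, against 28 of 9355 genes, or 0.299%, over all genes tested. The replicates of both genotypes overlapped for all 34, while they did not for 3.46% of all genes. At an unadjusted p under 0.05 edgeR gave 1 member higher, COX7AL, and 0 lower, and DESeq2 called 0 members and 121 genes. COX7AL passed the filter on low counts mainly through the TFAM libraries (77 counts in all, against 25 in control). Of the 30 main copies 29 were lower in TFAM overexpression, with log2 fold changes between -0.51 and 0.04 and a median of -0.22, beside a median of -0.01 over all genes.

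By complex, 3 of 4 tested genes of complex II, 7 of 7 of complex III, 10 of 11 of complex IV and 11 of 12 of complex V were lower in TFAM overexpression, none past the threshold. COX7B had a log2 fold change of -0.51 (SE 0.39, 95% interval -1.39 to 0.38, edgeR adjusted p = 0.880), and UQCR-6.4, a small subunit of complex III, one of -0.35 (SE 0.25, interval -0.92 to 0.23, the same adjusted p). UQCR-6.4 was at 45.9, 55.7, 95.2 and 63.6 CPM in control, at 46.3, 74.6, 43.7 and 42.7 CPM in TFAM overexpression, at 47.7, 55.7, 63.0 and 63.2 CPM with ATF4 RNAi and at 40.1, 52.4, 49.2 and 56.1 CPM in the labelled ATF4 overexpression. As for COX7B, the highest value was that of control replicate 3, and TFAM overexpression replicate 2 was above the other TFAM libraries. SdhA was at 0.04 (interval -0.21 to 0.28). COX7AL was at 1.46 (SE 0.48, interval 0.38 to 2.54, unadjusted p = 0.0138, edgeR adjusted p = 0.668, between 0.172 and 0.990 over the alternatives), and ATPsynepsilonL at 0.83 (SE 0.55, edgeR adjusted p = 0.880). Since COX7AL was tested mainly because of the group where it was higher, its p and interval are no separate support for a difference. For 8 of the 30 main copies the 95% interval lay within a 1.5-fold change either way and for 24 within 2-fold, so larger changes of those genes are not within the interval while smaller ones are.

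The median against control depended on single libraries, most of all on control replicate 3. Without that library it was -0.02, with 13 main copies higher and 17 lower, COX7B at -0.04 and UQCR-6.4 at -0.10. With the trend on exon length removed it was -0.06, with 9 higher and 21 lower. Leaving out TFAM overexpression replicate 2 instead gave -0.33, and leaving out TFAM overexpression replicate 1 gave -0.14. Leaving out control replicate 3 and TFAM overexpression replicate 2 together, a choice made after seeing the data, gave -0.15, with 27 lower. In that fit 3 members were lower and 2 higher at an unadjusted edgeR p under 0.05. No member was called in any of these fits. Glia markers summed to between 810 and 1304 CPM in TFAM overexpression and to between 983 and 1798 CPM in control, and fat body markers to between 59.9 and 113 CPM against 131 to 509 CPM. Salivary gland markers summed to between 0.601 and 197 CPM in TFAM overexpression and to between 1.12 and 36.9 CPM in control, so the groups overlapped. Of the 5 salivary gland markers tested (median log2 fold change 2.44), 0 had an unadjusted edgeR p under 0.05. The same holds for the 4 ring gland markers, with a median of -1.06. All 6 fat body markers were detected in every library. In TFAM overexpression all 6 were lower at an unadjusted edgeR p under 0.05 (median log2 fold change -2.07), and 1 was called. The part of these tissues in these medians was not tested.

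**Figure D4:**
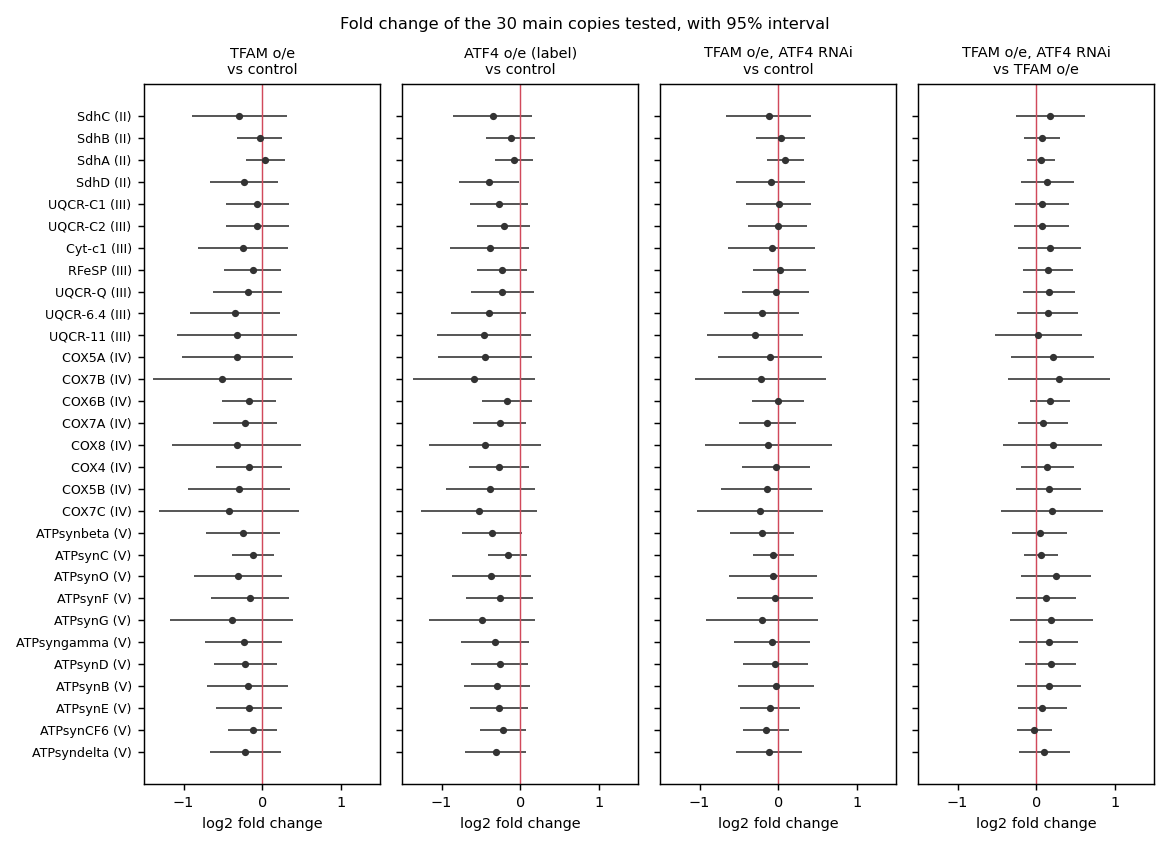
Log2 fold change (points) with its 95% interval (lines) for the 30 main copies tested, in the 4 comparisons. All intervals include 0 except that of SdhD in the labelled ATF4 overexpression against control, and the estimates against control lie mostly below 0 (29, 30 and 26 of 30).

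Between control and the labelled ATF4 overexpression, 0 of 31 members tested passed edgeR's threshold, against 72 of 9410 genes, or 0.765%. Of the duplicates only ATPsynepsilonL passed the filter on low counts here, so COX4L, COX7AL and COX7CL were not tested. COX4L passed that filter only between control and TFAM overexpression. Replicates overlapped for all 31, beside 6.93% of all genes for which they did not. An unadjusted p under 0.05 was reached by 0 members higher and 1 lower in edgeR, and DESeq2 called 0 members and 208 genes. All 30 main copies were lower, between -0.59 and -0.08 on the log2 scale with a median of -0.30, beside -0.02 over all genes. A batch of the labelled ATF4 overexpression samples, if there was one, cannot be told apart from genotype here.

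SdhD, a membrane anchor of complex II (chr3R:23759483-23760600), had the smallest p. It was at 49.7, 55.1, 85.9 and 67.3 CPM in control and at 46.2, 52.2, 43.5 and 54.8 CPM in the labelled ATF4 overexpression, so that the upper values of the second group lie within the control range. Its log2 fold change was -0.40 (SE 0.17, 95% interval -0.78 to -0.02, unadjusted p = 0.0424, edgeR adjusted p = 0.530). In TFAM overexpression SdhD was at 44.4, 67.4, 56.6 and 53.7 CPM, and with ATF4 RNAi at 50.4, 53.5, 65.5 and 76.7 CPM. ATPsynbeta was at -0.36 (SE 0.17, interval -0.74 to 0.02, edgeR adjusted p = 0.530), and the lowest estimate was that of COX7B at -0.59 (interval -1.36 to 0.18). Medians by complex were -0.24 for complex II, -0.27 for complex III, -0.41 for complex IV and -0.30 for complex V.

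Without control replicate 3 the median was -0.11, again with 30 of 30 lower, SdhD was at -0.22 (edgeR adjusted p = 0.558, between 0.174 and 0.813 over the alternatives) and ATPsynbeta at -0.18. Removing the trend on length gave -0.10, with 26 lower. Leaving out control replicate 1 moved it the other way to -0.41, and 17 members then had an unadjusted p under 0.05, still with 0 called. With all 4 controls the interval lay within 1.5-fold for 7 main copies and within 2-fold for 24, and without control replicate 3 it lay within 1.5-fold for all 30. The glia sum in the labelled ATF4 overexpression was between 840 and 1061 CPM and the neuron sum between 2195 and 2709 CPM, against 1257 to 2472 CPM in control. Of 4 glia markers, 2 were lower at an unadjusted edgeR p under 0.05. Median log2 fold changes were -0.88 for fat body markers (1 of 6 lower at that level), -1.74 for ring gland and -1.21 for salivary gland markers (0 at that level). The part of these cells and tissues in the median of the main copies was not tested.

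The third comparison set TFAM overexpression with ATF4 RNAi against TFAM overexpression alone. None of 33 members tested was called by edgeR, against 52 of 9436 genes, or 0.551%, and replicates overlapped for all 33 beside 4.15% of all genes without overlap. At an unadjusted p under 0.05 edgeR gave 0 members higher and 1 lower, ATPsynepsilonL, and DESeq2 called 0 members and 163 genes. Here 29 of 30 main copies were higher with ATF4 RNAi, with log2 fold changes between -0.02 and 0.29 and a median of 0.14, beside 0.00 over all genes. This comparison shares the TFAM libraries with the first, so that opposite signs in both are not independent of each other.

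COX6B (chrX:19740537-19744335) had the smallest p among the higher main copies. It was at 223, 289, 230 and 219 CPM in TFAM overexpression and at 235, 258, 293 and 302 CPM with ATF4 RNAi, where TFAM replicate 2 lies within the second group, and its log2 fold change was 0.17 (SE 0.11, 95% interval -0.08 to 0.43, edgeR adjusted p = 0.989). ATPsynO (chr3R:15265591-15266690) was at 203, 345, 244 and 226 CPM in TFAM overexpression and at 230, 262, 317 and 408 CPM with ATF4 RNAi (0.25, SE 0.20, interval -0.20 to 0.69, edgeR adjusted p = 0.989). Control values were 225, 261, 461 and 301 CPM for ATPsynO and 214, 249, 323 and 283 CPM for COX6B. In the labelled ATF4 overexpression they were 220, 281, 204 and 267 CPM for ATPsynO and 223, 257, 214 and 263 CPM for COX6B. ATPsynepsilonL had a log2 fold change of -1.15 (SE 0.43, interval -2.10 to -0.20, unadjusted p = 0.0227, edgeR adjusted p = 0.670), and COX7AL one of -0.42 (SE 0.34, edgeR adjusted p = 0.989). The other duplicate tested, COX7CL, was at 0.13 (SE 0.34). None of these 3 passed the test.

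This median moved with several single libraries. Without TFAM overexpression replicate 2 it was 0.27, with 30 of 30 higher and 14 members at an unadjusted p under 0.05, and without ATF4 RNAi replicate 4 it was 0.04, with 23 higher. Without TFAM overexpression replicate 1 it was 0.06, with 25 higher, and without ATF4 RNAi replicate 1 it was 0.22, with 30 higher. With the length trend removed it was 0.05, with 24 higher. No member was called in any of these. The 95% intervals were narrowest in this comparison, within 1.5-fold for 23 and within 2-fold for all 30 main copies.

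Between control and TFAM overexpression with ATF4 RNAi, 0 of 33 members were called by edgeR, against 53 of 9421 genes, or 0.563%, and replicates overlapped for all 33 beside 3.59% of all genes without overlap. At an unadjusted p under 0.05 there was 1 member higher, COX7AL, and 0 lower, and DESeq2 called 0 members and 134 genes. Of 30 main copies 26 were lower, with a median of -0.09 on the log2 scale beside -0.02 over all genes. Without control replicate 3 the median was 0.13 with 27 of 30 higher, and without ATF4 RNAi replicate 1 it was 0.01 with 16 higher, so that the direction itself depended on single libraries. Leaving out control replicate 1 gave -0.20 and control replicate 2 gave -0.16, while it was -0.04 without ATF4 RNAi replicate 2 and -0.18 without ATF4 RNAi replicate 4. Fat body markers summed to at most 172 CPM with ATF4 RNAi, against 131 to 509 CPM in control, and all 6 were lower at an unadjusted p under 0.05, with 0 called by edgeR (median log2 fold change -1.69). The 4 ring gland markers had a median of -1.68 and the 5 salivary gland markers tested one of 2.83, on the log2 scale, and none of these 9 was called by edgeR or had an unadjusted p under 0.05. The part of these tissues in the median of the main copies was not tested.

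COX7AL was at 1.03 in this comparison (SE 0.45, 95% interval 0.02 to 2.04, unadjusted p = 0.0469, edgeR adjusted p = 1.00), as a log2 fold change. Here too it passed the filter on low counts mainly through the group where it was higher (58 counts, against 25 in control). SdhA was at 0.09 (SE 0.11, interval -0.15 to 0.33). ATPsynCF6 (chr3R:23355220-23356064) was at 124, 141, 176 and 164 CPM in control and at 127, 138, 153 and 136 CPM with ATF4 RNAi, a log2 fold change of -0.16 (SE 0.13, interval -0.44 to 0.13). Its values were 136, 166, 133 and 126 CPM in TFAM overexpression and 113, 139, 127 and 140 CPM in the labelled ATF4 overexpression, within the control range but for the lowest. The interval lay within 1.5-fold for 18 and within 2-fold for 28 of the 30 main copies.

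A single F test over the 16 libraries asked whether a gene differed among the 4 genotypes at all. It called 261 of 9731 genes, or 2.68%, and 0 of 34 members. Of the members, 2 were below 0.05 before adjustment, both duplicates of complex IV subunits. The edgeR adjusted p was 0.140 for COX7AL and 0.207 for COX4L. COX7AL again passed the filter on low counts mainly through the libraries with TFAM overexpressed. COX4L reached an edgeR adjusted p of 0.0453, and was called, when control replicate 4, its lowest control, was left out. Among main copies SdhD had the smallest adjusted p, at 0.765. COX4L had 14 counts over the libraries of the labelled ATF4 overexpression and 43 over those of control.

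Other genes of the pathway were measured as well. Of the subunits under other symbols, 11 were found in the files, and 6 of them were above 1 CPM in every library: blw, the complex IV subunits levy and cype, the ATP synthase epsilon subunit sun, the complex III subunit ox and cytochrome c (Cyt-c-p). The others, knon, Cyt-c-d, Cyt-c1L, SdhAL and SdhBL, are duplicate or germline copies and were low. edgeR called 0 of them in any comparison, with 1 below an unadjusted p of 0.05 (lower in the labelled ATF4 overexpression), 4 of 7 tested lower and 3 higher in TFAM overexpression, 4 of 6 lower in the labelled ATF4 overexpression, and 7 of 7 higher on adding ATF4 RNAi. Levy was at 144, 165, 434 and 190 CPM in control and at 118, 307, 168 and 144 CPM in TFAM overexpression, again highest in control replicate 3 and TFAM replicate 2. The 8 assembly factors found, such as Scox and Surf1, had median log2 fold changes of -0.30 in TFAM overexpression, -0.35 in the labelled ATF4 overexpression and 0.13 on adding ATF4 RNAi. edgeR called 0 of them, and 2 were lower at an unadjusted p under 0.05 in the labelled ATF4 overexpression.

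Genes of 2 similar groups, complex I and the mitochondrial ribosome, are set beside the main copies. Median log2 fold changes of the 32 complex I genes tested were -0.29, -0.38, 0.16 and -0.10 in TFAM overexpression, in the labelled ATF4 overexpression, on adding ATF4 RNAi to TFAM overexpression, and in that genotype against control. Those of the 71 mitochondrial ribosomal protein genes tested were -0.28, -0.36, 0.18 and -0.11. edgeR called 0 genes of either group, and in the labelled ATF4 overexpression 5 complex I genes and 2 mitochondrial ribosomal protein genes were lower at an unadjusted p under 0.05. On adding ATF4 RNAi to TFAM overexpression, 1 mitochondrial ribosomal protein gene was higher and 1 lower by the same measure. The corresponding medians of the 30 main copies of complexes II to V were -0.22, -0.30, 0.14 and -0.09. The difference between these groups was not tested, and all of them share the same libraries.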

How the data were processed

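The authors made stranded polyA libraries (TruSeq Stranded mRNA kit), read as 75-base single-end reads, mapped them to dm6 with Bowtie2 2.3.4.2 and counted reads per gene with featureCounts 1.6.3, using Galaxy defaults (versions per the submitters' processing notes). The deposited files hold these raw counts, which were not normalized. The gene annotation and strand setting are not given in the sources used here, so genes overlapping on either strand are uncertain. Symbols, exon lengths and dm6 coordinates came from BDGP release 6 (Ensembl release 115), which matched 17560 of 17698 identifiers.

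Each pair of genotypes (8 libraries) was fitted in R 4.3.3 with edgeR 4.0.16 (TMM, filterByExpr, quasi-likelihood test). P-values were Benjamini-Hochberg adjusted over the whole table, and calls needed an adjusted p below 0.05 and a 1.2-fold difference or more. Standard errors and 95% intervals were derived from the F statistics. A further F test used all 16 libraries. CPM used TMM factors over the 16 libraries and FPKM the union exon length. The scripts were tested on simulated data.

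Alternatives were DESeq2 1.42.0, edgeR with the size factors of DESeq2, leaving low counts unfiltered, an FPKM of at least 1, no fold change threshold or one of 1.5, all libraries in each fit, the replicate block, an offset that removes each library's trend on exon length (loess, span 0.5), and leaving out libraries. The length offset without control replicate 3, the fit without control replicate 3 and TFAM overexpression replicate 2, and the alternatives of the F test were added after seeing the data. Replicates differed beyond sampling noise (chi-square per degree of freedom 8.64 to 368). Values by library (for some groups their range) are given for members called, the 2 with the smallest p in each direction of each comparison, the highest and lowest detected of each complex by FPKM, and duplicates above 1 CPM. Values of other genes in single libraries (blw, levy) were added after they were seen. The members and lists were chosen with earlier results of these data known. Promoter motifs were not analysed here.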

Additional observations from a re-analysis of the deposited data

Results flagged for a closer look

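Each of the 15 members whose values are given library by library, and the summed CPM of the main copies, were examined within each genotype for a library far from the other 3, by Dixon's test at the 95% level. Of 64 groups, 6 held such a library, where chance gives about 1 in 20. In TFAM overexpression replicate 2, 4 main copies stood above the other 3 libraries, namely ATPsynbeta at 2552 CPM, COX6B at 289 CPM, COX7B at 237 CPM and UQCR-6.4 at 74.6 CPM. These genes moved together in that library, so they are not 4 separate findings. Among the duplicates, ATPsynepsilonL was high in ATF4 RNAi replicate 4 at 1.14 CPM, and COX4L was low in TFAM overexpression replicate 3 at 0.277 CPM. Control replicate 3 was not among them, since its distance to the next control did not reach the critical value for any of the 15 or for the sum.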

How the results depend on the processing

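Members were called in 0 cases in the 4 comparisons under every alternative run, those with DESeq2, no filter on low counts, the length offset and the left-out libraries included. In the F test over the 4 genotypes, leaving out 1 library gave between 0 and 1 members called, the 1 being COX4L without control replicate 4 (adjusted p = 0.0453). Over the members given by library, in the comparisons whose main fit tested them, 952 fits gave 0 calls, adjusted p between 0.139 and 1.00, and the other sign in 65. Over all members tested, the smallest edgeR adjusted p with all 16 libraries in the fit was 0.0866, for the labelled ATF4 overexpression against control. Leaving out 1 library, the median log2 fold change of the main copies ranged from -0.33 to -0.02 (TFAM overexpression against control), from -0.41 to -0.09 (labelled ATF4 overexpression, the latter with the length offset), from 0.04 to 0.27 (ATF4 RNAi added) and from -0.20 to 0.13 (ATF4 RNAi genotype against control). The replicate numbers did not pair the libraries throughout, with correlations above 0.1 for 2, 1, 1 and 3 of 4 numbers in these comparisons. For replicate 1 the correlation was between 0.51 and 0.61 in all 4 comparisons. In the last comparison all 4 were positive (0.58, 0.38, 0.40 and 0.08), and the replicate block took the median SE of the main copies from 0.191 to 0.131. With the replicate number as a block the medians were -0.21, -0.27, 0.16 and -0.06, with 0 members called, while calls over all genes went from 28, 72, 52 and 53 to 9, 21, 21 and 36. They were 121, 208, 163 and 134 with DESeq2, 55, 154, 87 and 88 with the length offset, and 92, 147, 66 and 94 with all libraries in the fit. Against control, the length offset without control replicate 3 gave medians of -0.04, -0.09 and 0.01. Depth limits most duplicate copies, 11 of 15 having at most 5 counts in any library.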
